A study of Caenorhabditis elegans with 2 samples.

Results

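The 9 genes described here encode the large chaperones of Caenorhabditis elegans that belong to the HSP70, HSP90, HSP110 and HSP60 families. They are hsp-1, hsp-70, hsp-90 (also named daf-21) and hsp-110 for the cytosol, hsp-3, hsp-4 and enpl-1 for the endoplasmic reticulum (ER), and hsp-6 and hsp-60 for mitochondria. They were chosen by name from the 19973 nuclear protein-coding genes of the Ensembl annotation, and every peak summit within 1000 bp of each gene was collected. AMA-1, which forms the large subunit of the polymerase that transcribes protein-coding genes (RNA polymerase II), was mapped by ChIP-seq, the sequencing of DNA that is precipitated with a chromatin protein. Whole worms were taken as young adults, with males and females pooled; their age is given as unknown. Both samples were biological replicates of a single group, so the design holds no second condition and no test between conditions was possible. The strain was YL489, which carries unc-119(ed3) III and the transgene vrIs104, where AMA-1:GFP:FLAG is under the pie-1 promoter with the puf-5 3′UTR beside an unc-119(+) rescue. The pie-1 promoter is known for germline expression, and the sources used here do not say if the tag or the AMA-1 part was the epitope. No heat or other stress is named in the labels. In whole animals, more cells with polymerase on a gene and more polymerase per cell cannot be told apart.

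HSP70 proteins bind and release stretches of unfolded protein in a cycle driven by ATP, with J proteins that stimulate the ATPase and with HSP110 as a nucleotide exchange factor. HSP90 proteins act later on partly folded clients such as kinases and receptors, and HSP60 forms a closed chamber for folding in the mitochondrial matrix. Cells make the constitutive members without stress, whereas heat shock factor HSF-1 raises hsp-70 on heat stress, and the ER unfolded protein response raises hsp-4 through XBP-1. The mitochondrial genes hsp-6 and hsp-60 are made without stress and are also raised by the mitochondrial unfolded protein response. At heat shock genes of flies, paused polymerase near the promoter is a textbook example, which is why the place of a summit along these genes was examined.

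Heat shock factor binds heat shock elements, alternating GAA and TTC units spaced by 2 bases. The 550 bp around each annotated 5′ end (500 bp before it and 50 bp after it) were searched on both strands for 3 such units, either GAA, 2 bases, TTC, 2 bases, GAA or its counterpart that starts with TTC. A match was present at 5 of the 9 genes, which were all 4 cytosolic members and hsp-6, against 3.58% of all 19973 windows of the same length. None was found at hsp-3, hsp-4, enpl-1 or hsp-60. The matches are shown because they place a named promoter element beside the summits described below; they are read 5′ to 3′ on the strand of the gene from the RefSeq genome of WBcel235, with the element in capitals. The match of hsp-70, at 73 to 61 bp before its 5′ end, and a further match of hsp-90 that began 15 bp before its 5′ end are not printed.
hsp-1, chrIV:17278806-17278835, plus strand: acgaaattcGAATTTTCTAGAAtcccgcca
hsp-90, chrV:14684824-14684853, plus strand: aaacagtttTTCTCGAATGTTCtacaaaaa
hsp-110, distal match, chrIII:8447126-8447155, minus strand: actagacgtTTCTCGAATATTCggtgtgcc
hsp-110, proximal match, chrIII:8447004-8447033, minus strand: tatttgctcGAAATTTCTAGAAaaatattt
hsp-6, chrV:4827047-4827076, minus strand: attctttttTTCGAGAAATTTCtcgagttt

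The shorter form with 2 units, which every match above also contains, was present at 6 of the 9 genes and in 52.1% of all windows, and the TATA box TATAAA was present at 5 of 9 and in 56.0% of all windows. The ER stress element (CCAAT, 9 bases, CCACG) was found at 0 of 9 genes and in 0.0501% of windows, and the core of the unfolded protein response element (TGAC followed by GTGG) at 0 of 9 and in 1.48% of windows. These counts describe letters in the windows and say nothing about binding.

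The deposited lists give, for each region, a summit and the authors' signal value, whose scale is not given, so ranks within a list are used with 1 as the strongest. The optimal list held 887 peaks, which were exactly the 887 strongest of the 30000 pooled candidate regions. Replicate 1 had 28020 candidate regions and replicate 2 had 30000. No list gives reads, so the depth of the libraries is unknown, and a value per site has no error other than its position in the 2 replicates. Of all optimal peaks, 827 (93.2%) overlapped a candidate in both replicates, and 296 (33.4%) overlapped a region among the 887 strongest of both.

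AMA-1 summits of the optimal list lay within 1000 bp of 7 of the 9 chaperone genes, against 5.35% of all protein-coding genes, or 6.71% of the 10117 genes of at least 2000 bp. The members were long genes, with a median of 3000 bp against 2027 bp for all genes. The 7 genes were hsp-1, hsp-70, hsp-90, hsp-110, hsp-3, hsp-6 and hsp-60, with 8 summits in all, since hsp-1 had 2. A gene with 2 or more optimal summits was found in 0.511% of all genes. The exceptions were hsp-4 and enpl-1, both of the ER, whose nearest optimal summits were 30358 bp and 9317 bp away. Each of the 9 genes had a pooled candidate summit within 1000 bp, as did 49.6% of all genes. The median of the best pooled rank was 373 for the members, 6145 for the 9902 protein-coding genes with a pooled summit and 5734.5 for those of at least 2000 bp.

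**Figure D1:**
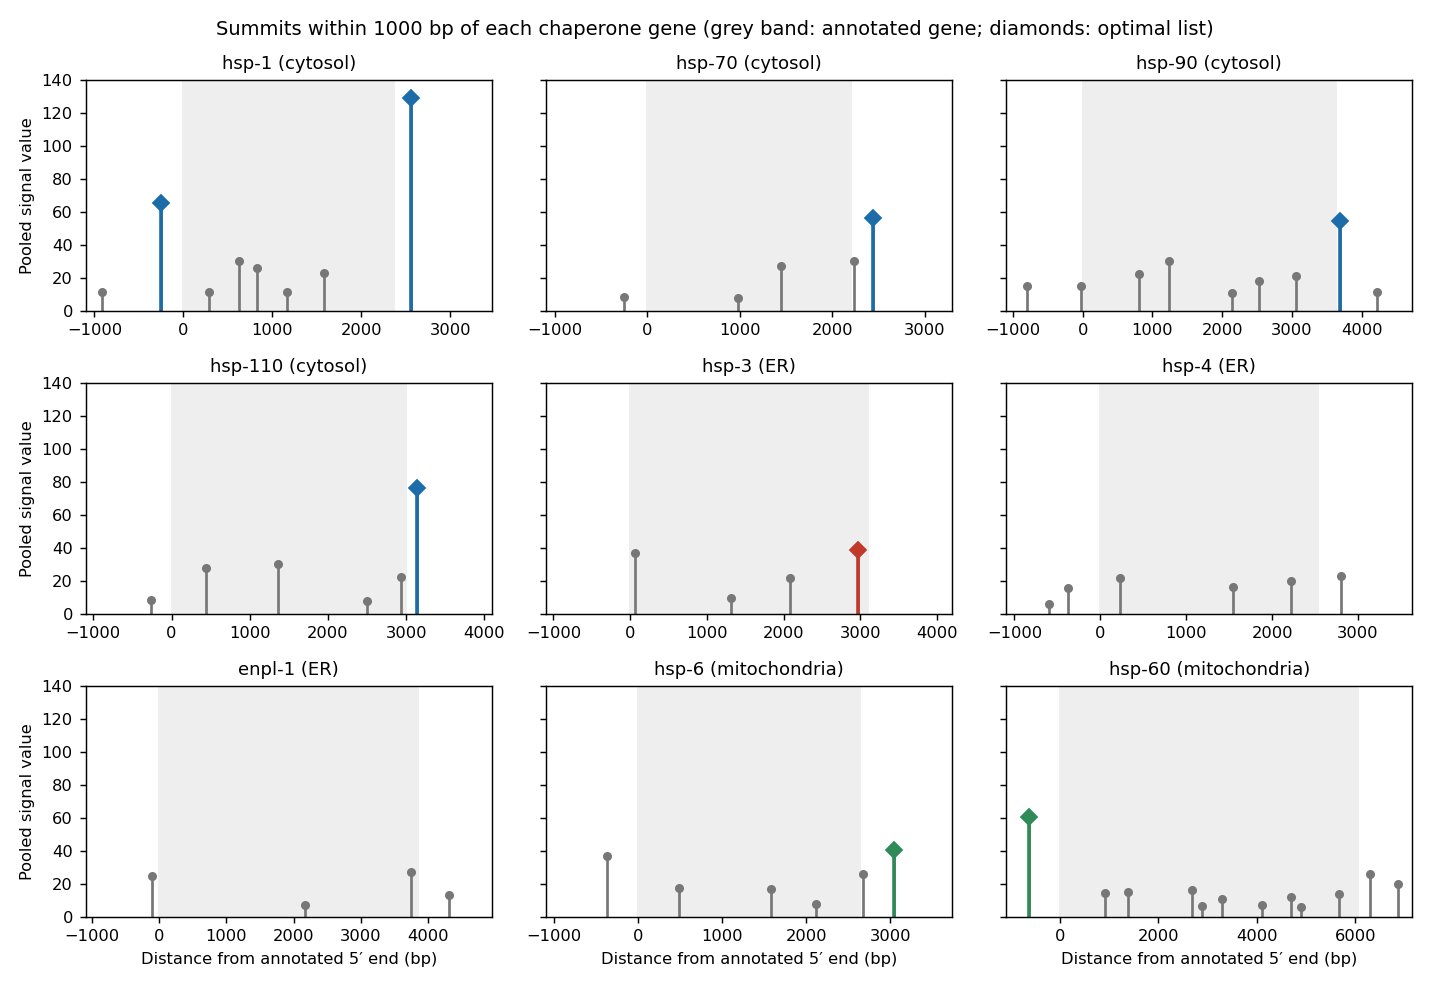
Pooled AMA-1 summits within 1000 bp of each of the 9 genes; the horizontal axis is the distance from the annotated 5′ end in bp, the vertical axis is the authors' signal value, the grey band is the gene, and coloured diamonds are optimal peaks. The tallest summit stands beside the 3′ end at every gene but hsp-60, where it stands 629 bp upstream.

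The gene hsp-1 (WBGene00002005, chrIV:17278959-17281330, plus strand) encodes the constitutive cytosolic HSP70, a main folding chaperone under normal growth. It had the strongest summit of all members, and the summit lay past its 3′ end. The peak at chrIV:17281432-17281625 had signal 129.0 in the pooled list (rank 44), 103.9 in replicate 1 (rank 25) and 11.6 in replicate 2 (rank 6353). Its summit was 192 bp past the 3′ end, in the 3′UTR of nra-1, a gene that runs toward hsp-1 from 124 bp away. Replicate 2 instead had a narrow region next to it, not overlapping it, with signal 39.7 and rank 285, and with its summit 58 bp past the 3′ end of hsp-1. Both replicates thus had a region of high rank within 500 bp of the 3′ end, but at positions that did not overlap.

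The other optimal peak of hsp-1 lay upstream, at chrIV:17278571-17278850, with its summit 248 bp before the 5′ end and between genes. Its signal was 65.4 in the pooled list (rank 218), 26.9 in replicate 1 (rank 332) and 28.7 in replicate 2 (rank 597), so both replicates ranked it among their 887 strongest. This peak contained the heat shock element printed above, which began 144 bp before the 5′ end and lay 104 bp from the summit. Inside hsp-1, 5 further pooled summits ranked between 1602 and 15120, the weakest of them inside the snoRNA gene F26D10.24, which lies in an intron.

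The gene hsp-70 (WBGene00002026, chrI:9320325-9322519, minus strand) encodes the cytosolic HSP70 that rises on heat. It lies on the opposite strand within an intron of uggt-2, which encodes a UDP-glucose:glycoprotein glucosyltransferase of ER quality control. Its optimal peak at chrI:9319946-9320225 had signal 56.2 in the pooled list (rank 340), 24.6 in replicate 1 (rank 429) and 33.2 in replicate 2 (rank 426), the closest pair of replicate ranks among the 8 sites. The summit was 239 bp past the 3′ end of hsp-70, between 2 tRNA genes whose ends were 50 bp and 92 bp away. The replicate summits lay 54 bp (replicate 1) and 276 bp (replicate 2) past the 3′ end. Signal of hsp-70, uggt-2 and the tRNA genes cannot be told apart there, and with peaks within 250 bp of tRNA, snoRNA and snRNA genes left out hsp-70 had no optimal summit. At its 5′ end the best pooled summit ranked 22341 (signal 8.11), replicate 1 had none within 500 bp, and replicate 2 had rank 9292.

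The gene hsp-90 (WBGene00000915, chrV:14684918-14688545, plus strand) encodes the cytosolic HSP90. Its optimal peak at chrV:14688473-14688752 had signal 54.1 in the pooled list (rank 373), 43.5 in replicate 1 (rank 81) and 29.3 in replicate 2 (rank 555), within the 887 strongest of both. The replicate 1 region, chrV:14688735-14688815, had its summit 226 bp past the 3′ end, in a coding exon of C47E8.11. It did not overlap the replicate 2 region, chrV:14688461-14688704, whose summit lay 38 bp past the 3′ end. The pooled summit was 68 bp past the 3′ end and 3 bp before the 5′ end of C47E8.11, the next gene on the same strand, which begins 70 bp downstream, so the 3′ end of hsp-90 and the start of C47E8.11 cannot be told apart. The annotated start of hsp-90 also differs between sources: RefSeq places it at 14686160, inside the Ensembl gene. A pooled summit of signal 29.98 and rank 1651 lay 2 bp before that RefSeq start, and replicate 2 had its best summit of the gene there, with signal 38.4 and rank 306. At the Ensembl 5′ end, where the heat shock element lies, the pooled summit ranked 9238. The window at the RefSeq start held 0 matches to the 3-unit element.

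The gene hsp-110 (WBGene00016250, chrIII:8443910-8446909, minus strand) encodes the cytosolic HSP110. Its optimal peak, 79 bp wide at chrIII:8443745-8443823, had signal 75.9 in the pooled list (rank 149), 53.3 in replicate 1 (rank 50) and 16.7 in replicate 2 (rank 2611). The summit was 142 bp past the 3′ end and 161 bp before the 5′ end of ufbp-1, a DDRGK domain gene that follows on the same strand after 302 bp. Replicate 1 ranked this site far above replicate 2. At the upstream side a summit 260 bp before the 5′ end, beside the distal heat shock element, ranked 21741 in the pooled list and 1802 in replicate 1 (signal 15.0), and replicate 2 had no region over that element. The proximal element lay in a replicate 2 region of rank 8312, 16 bp from its summit, and in no region of replicate 1 or the pooled list.

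The sequence at 3 of the summits outside exons is shown as the site itself, in 30 bp on the strand of the gene, because each of these summits lies in the gap between a chaperone gene and its neighbour.
hsp-110, 3′ side, chrIII:8443753-8443782, minus strand: ataacatggctgtgacacggtggagggttg
hsp-6, 3′ side, chrV:4823706-4823735, minus strand: gtgtgtgtgtgtgtgtgtgtgtattttttg
hsp-60, upstream, chrIII:1619098-1619127, plus strand: cggcaaacttgcaaatctaggcgtgtcggg
The hsp-6 summit lies on a run of repeated GT. Over 280 bp around the 8 summits the GC content ranged from 28.21% at hsp-110 to 45.36% at hsp-60. All optimal nuclear peaks had a median of 39.64% with quartiles at 35.36% and 44.55%, and the nuclear genome stood at 35.44%.

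In the pooled list and in replicate 1 the best summits of the 3 ER genes ranked behind those of the cytosolic genes, though not in replicate 2, and of the 3 hsp-3 alone had an optimal peak. The gene hsp-3 (WBGene00002007, chrX:6089028-6092124, minus strand) encodes the constitutive BiP, the HSP70 of the ER lumen. Its optimal peak at chrX:6089019-6089298 had signal 38.6 in the pooled list (rank 833), 4.10 in replicate 1 (rank 17618) and 30.1 in replicate 2 (rank 523). The summit lay inside the gene, in its 3′UTR and 131 bp before the 3′ end, and its neighbour C45B2.8, on the opposite strand, ends 615 bp away. This site rested on replicate 2, since in replicate 1 it stood past 62.9% of that list. At the 5′ end of hsp-3 the summit in the 5′UTR had signal 36.6 and rank 958, just outside the optimal list, whose weakest peak had signal 37.7. That 5′ summit ranked 1521 in replicate 1 (signal 16.0) and 2133 in replicate 2 (signal 17.9), closer together than the ranks of the optimal peak.

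The gene hsp-4 (WBGene00002008, chrII:7350112-7352645, minus strand) encodes the BiP copy that the unfolded protein response raises. It had no optimal summit, and its best pooled summit had signal 23.1 and rank 3349, 271 bp past the 3′ end. In replicate 1 its best region was 572 bp before the 5′ end with signal 16.9 and rank 1301, and in replicate 2 it was 300 bp before the 5′ end with signal 10.6 and rank 7818. The 3 lists therefore put the best summit of hsp-4 at 3 different places. The gene enpl-1 (WBGene00011480, chrIV:11119298-11123155, plus strand) encodes the GRP94 form of HSP90 in the ER. Its best pooled summits were in its 3′UTR (signal 26.9, rank 2199) and 102 bp before its 5′ end (signal 24.6, rank 2800). The best of replicate 1 ranked 5357 in a coding exon, and the best of replicate 2 ranked 8082 at 85 bp before the 5′ end, so neither replicate placed enpl-1 near its 887 strongest regions.

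Both mitochondrial genes had an optimal summit, each nearer to another protein-coding gene than to the chaperone. The gene hsp-6 (WBGene00002010, chrV:4824124-4826760, minus strand) encodes the mitochondrial HSP70. Its optimal peak at chrV:4823581-4823860 had signal 40.6 in the pooled list (rank 734), 31.1 in replicate 1 (rank 225) and 15.0 in replicate 2 (rank 3543). The summit was 403 bp past the 3′ end and 298 bp before the 5′ end of adss-1, which encodes adenylosuccinate synthetase on the same strand. Replicate 2 had its best region of the gene closer in, 25 bp past the 3′ end, with signal 37.4 and rank 331, and the pooled list had a summit 36 bp past the end at rank 2454. At the 5′ side a pooled summit of signal 37.2 and rank 923, 365 bp before the 5′ end and in the ncRNA genes C37H5.15 and C37H5.16, just missed the optimal list. The heat shock element of hsp-6 lay in that region, 58 bp from its summit, and the region ranked 10451 in replicate 1 and 2590 in replicate 2.

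The gene hsp-60 (WBGene00002025, chrIII:1619742-1625803, plus strand) encodes the mitochondrial chaperonin. Its optimal peak at chrIII:1618973-1619252 had signal 60.3 in the pooled list (rank 276), 12.9 in replicate 1 (rank 2722) and 39.5 in replicate 2 (rank 288). The summit was 629 bp before the 5′ end of hsp-60 and 184 bp before the 5′ end of Y22D7AL.10, which runs the other way and which RefSeq annotates as the mitochondrial 10 kDa heat shock protein, the lid of the HSP60 chamber. The peak thus stood in the gap between a chaperonin gene and the gene of its partner, and it was the optimal site farthest from a member. The pooled list placed 10 of the 12 hsp-60 summits between ranks 4930 and 29526, and the summit 246 bp past its 3′ end ranked 2383.

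**Figure D2:**
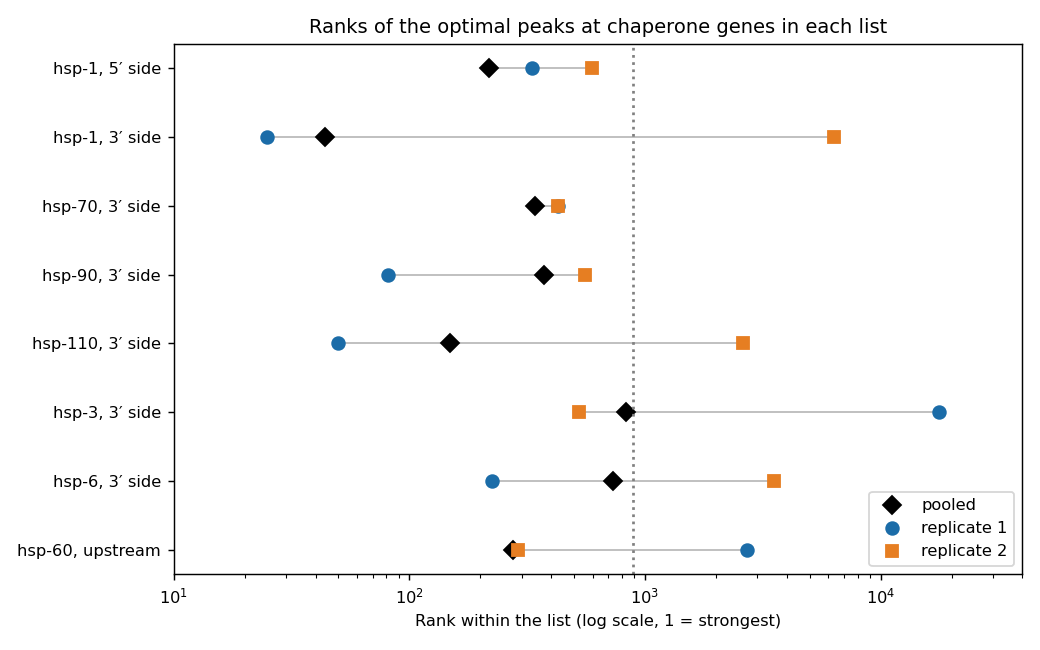
Rank of each of the 8 optimal sites in the pooled list (diamonds), replicate 1 (circles) and replicate 2 (squares), on a log axis with 1 as the strongest; the rank of a replicate is that of the best region overlapping the peak, and the dotted line marks rank 887. Only 3 sites (hsp-1 5′ side, hsp-70 and hsp-90) lie left of the line in both replicates, and at hsp-90 the replicate regions do not overlap each other.

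Agreement between replicates varied from site to site. All 8 optimal peaks overlapped a candidate region in both replicates. They overlapped one of the 887 strongest regions in 6 of 8 cases for replicate 1 and in 5 of 8 for replicate 2, and in both for 3. Among these 3, the replicate regions at hsp-90 did not overlap each other. Among all optimal peaks the shares were 51.3% for replicate 1, 65.1% for replicate 2 and 33.4% for both; 3 of 8 is near the last of these. The rank was better in replicate 1 at 5 sites and in replicate 2 at 3. Taking the 887 strongest summits of replicate 1 alone called 5 members (hsp-1, hsp-70, hsp-90, hsp-110 and hsp-6) against 5.19% of all genes. The same number of replicate 2 summits called 6 members (hsp-1, hsp-70, hsp-90, hsp-3, hsp-6 and hsp-60) against 5.15%. The genes hsp-1, hsp-70, hsp-90 and hsp-6 were on both lists, and the share of all genes on both was not computed. A gene can be on both lists through different regions. For hsp-6 the summit was 439 bp past the 3′ end in replicate 1 (rank 225) and 25 bp past it in replicate 2 (rank 331).

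The summits stood at 3′ ends more than at 5′ ends. An optimal summit lay within 500 bp of the annotated 3′ end in 6 of the 9 genes (hsp-1, hsp-70, hsp-90, hsp-110, hsp-3 and hsp-6), against 2.34% of all genes and 2.63% of genes of at least 2000 bp. Within 500 bp of the 5′ end it lay in 1 of 9 (hsp-1), against 1.51% of all genes. The rule on 3′ ends was chosen after the positions of these summits had been seen, so the count describes them and is not a test. With peaks near tRNA, snoRNA and snRNA genes left out, 6 of 9 members had an optimal summit within 1000 bp against 3.81% of genes, and 5 of 9 had one at the 3′ end against 1.91%. Of the 6 summits at 3′ ends, those of hsp-90, hsp-110 and hsp-6 were also within 500 bp of the 5′ end of another protein-coding gene, as was the case for 28.8% of the 468 genes with such a summit. The summit of hsp-70 was within 500 bp of the 5′ ends of both tRNA genes. When each summit counted only for its nearest protein-coding gene, 3 members remained (hsp-1, hsp-110 and hsp-3), against 3.46% of all genes. Of these, hsp-1 remained only through its peak upstream of the 5′ end, because its summit past the 3′ end lay inside nra-1. Many worm genes are trans-spliced, so an annotated 5′ end can lie downstream of the true promoter.

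**Figure D3:**
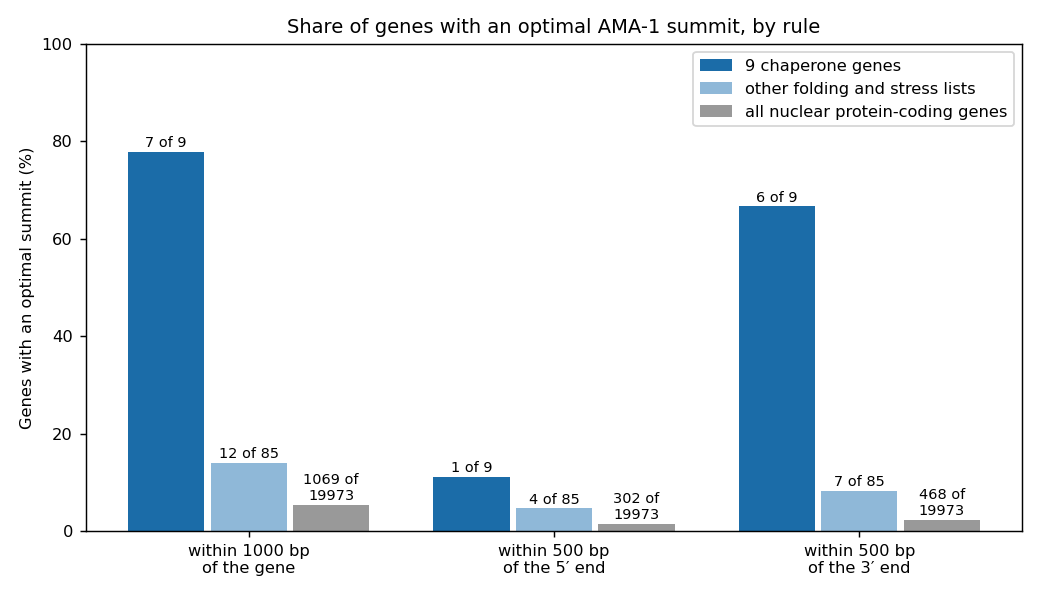
Percent of genes with an optimal summit by each of 3 rules, for the 9 chaperone genes, the 85 genes of the other folding and stress lists and all 19973 nuclear protein-coding genes, with counts above the bars. The chaperone genes stand at 7, 1 and 6 of 9 by the gene, 5′ end and 3′ end rules.

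The pooled candidate list, which reaches weaker regions, gave a picture for every member. It held 60 summits at the 9 genes, of which 16 were within 500 bp of a 3′ end, 12 within 500 bp of a 5′ end and 32 elsewhere. This split of all summits was not computed for other genes, so it has no background share. Replicate 1 held 49 and replicate 2 held 63. The strongest pooled summit was at the 3′ end in 8 of 9 members, all but hsp-60, against 29.5% of the 6048 genes of at least 2000 bp with a pooled summit, while 22.5% of those genes had it at the 5′ end. In the replicates taken singly it was at the 3′ end in 5 of 9, against 25% in replicate 1 (1691 of 6760 genes; members hsp-1, hsp-70, hsp-90, hsp-110 and hsp-6) and 27.5% in replicate 2 (1882 of 6847; members hsp-1, hsp-70, hsp-110, hsp-3 and hsp-6). In replicate 1 none of hsp-3, hsp-4 and enpl-1 had its strongest summit at the 3′ end.

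The best rank at each end was then set side by side. In the pooled list the 3′ end ranked better in 8 of the 8 members with a summit at both ends, against 55.0% of genes of at least 2000 bp with both. The gap was wide in the cytosolic genes, at 44 against 218 for hsp-1, 340 against 22341 for hsp-70, 373 against 9238 for hsp-90 and 149 against 2068 for hsp-110. It was narrow in hsp-3 (833 against 958), hsp-4 (3349 against 4017), enpl-1 (2199 against 2800) and hsp-6 (734 against 923), although for hsp-6 it was wide in replicate 1 (225 against 10451) and in replicate 2 (331 against 2590). In replicate 1 the 3′ end ranked better in 6 of 7 members, against 56.0%, with hsp-3 the exception at 17618 against 1521. In replicate 2 it ranked better in 7 of 9, against 56.6%, with hsp-4 (12125 against 7818) and enpl-1 (16355 against 8082) the exceptions. The 500 bp limit left out stronger upstream summits of hsp-4 in replicate 1 (rank 1301, 572 bp before the 5′ end) and of hsp-60 in replicate 2 (rank 288, 629 bp before it). Both genes counted for the 3′ end there. With Ensembl ends, the 4 cytosolic genes and hsp-6 had the better rank at the 3′ end wherever both ends had a summit. Each ER gene had the reverse order in 1 replicate. For hsp-90 the order depended on the annotated start. Near its RefSeq start the best summit of replicate 2 ranked 306, ahead of 555 at the 3′ end, and the best pooled summit ranked 1651, behind 373 at the 3′ end.

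**Figure D4:**
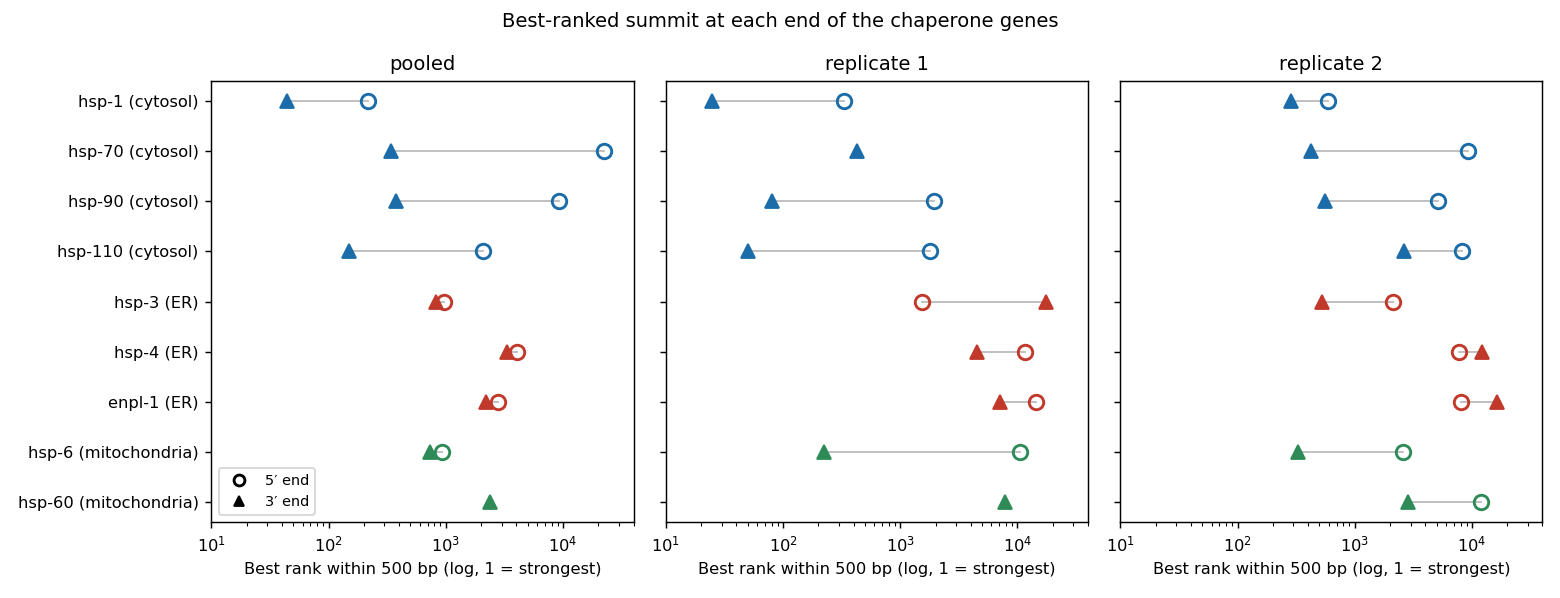
Best rank within 500 bp of the 5′ end (open circles) and of the 3′ end (triangles) of each gene, in the pooled list and in each replicate, on a log axis with 1 as the strongest; colours mark the compartment, and an end with no summit has no symbol. With the Ensembl ends drawn here, the cytosolic genes show triangles left of circles wherever both symbols are present, and the ER genes change order between replicates.

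By compartment, an optimal summit lay near 4 of 4 cytosolic, 1 of 3 ER and 2 of 2 mitochondrial genes, beside 5.35% of all genes. In replicate 1 alone, the 887 strongest summits gave 4 of 4, 0 of 3 and 1 of 2 in that order. The same rule called 5.19% of all genes. In replicate 2 alone the same number of summits gave 3 of 4, 1 of 3 and 2 of 2, beside 5.15%. Counting each optimal summit for its nearest gene only gave 2 of 4, 1 of 3 and 0 of 2, beside 3.46%. The best pooled ranks ran from 44 to 373 in the cytosol (median 244.5), from 833 to 3349 in the ER (median 2199) and from 276 to 734 in mitochondria (median 505). The ranges of the cytosolic and ER genes did not overlap, and those of cytosol and mitochondria did. With so few genes per compartment these are descriptions of single genes, and in replicate 2 the cytosolic hsp-110 (best rank 2611) stood behind the ER gene hsp-3 (523). By regulation, an optimal summit lay near 6 of 7 constitutive genes and 1 of 2 inducible genes. Constitutive here means made without stress: hsp-6 and hsp-60 are also raised by mitochondrial stress, and hsp-3 and hsp-90 respond to stress too. The inducible gene that had it was hsp-70, at the site between tRNA genes; away from small RNA genes the counts were 6 of 7 and 0 of 2, beside 3.81% of all genes. The constitutive hsp-3 and the inducible hsp-4, which encode the same ER chaperone, ranked 833 and 3349 in the pooled list, 523 and 7818 in replicate 2, but 1521 and 1301 in replicate 1. The constitutive hsp-1 and the inducible hsp-70 of the cytosol ranked 44 and 340 in the pooled list, 25 and 429 in replicate 1, and 285 and 426 in replicate 2.

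Other folding and stress genes, in 7 lists, had optimal summits within 1000 bp less often than the 9 members, at 12 of 85 genes (14.1%) against the 5.35% of all genes; the difference was not tested. At their 3′ ends 7 of 85 had one, beside 2.34% of all genes, and at their 5′ ends 4 of 85, beside 1.51%. None of the 12 small heat shock proteins, which hold unfolded proteins in solution on stress, had one; the best was hsp-12.3 with signal 37.5 and rank 897, 26 bp past its 3′ end. Of 6 other genes of the HSP70 superfamily list, T24H7.2, which RefSeq annotates as hypoxia up-regulated protein 1, had rank 248 with a summit inside the gene. F44E5.5 had rank 395 at 202 bp past its 3′ end, outside both this gene and its neighbour F44E5.4. The pair is near-identical, though the sequences were not compared here, and how reads of the pair were assigned is unknown. Of 29 J protein genes 4 had one, dnj-5 at rank 105 (204 bp past its 3′ end), dnj-9 at rank 316 (243 bp before its 5′ end), dnj-13 at rank 633 (224 bp before its 5′ end) and dnj-29 at rank 799, the last outside the rule for named genes and given to complete the count.

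The counts of the remaining lists by this rule stand beside the same 5.35% of all genes, and with so few genes per list they describe single genes. Of 12 cytosolic cochaperone genes 2 had an optimal summit within 1000 bp. These were unc-45, a myosin chaperone that binds HSP90, at rank 102 and 116 bp past its 3′ end, and bag-1, which encodes a nucleotide exchange factor of HSP70, at rank 725 and 27 bp past its 3′ end. Among 7 ER folding genes it was cnx-1, which encodes the lectin chaperone calnexin, at rank 240 and 9 bp past its 3′ end. Among 7 mitochondrial partner and protease genes it was Y22D7AL.10, through the site shared with hsp-60. Of 12 stress regulators, xbp-1, the transcription factor of the unfolded protein response, had rank 268 at 31 bp past its 3′ end, and atfs-1, that of the mitochondrial response, had rank 791 at 472 bp before its 5′ end.

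The genes whose best ranks in the 3 lists were nearest to those of hsp-1 (44 in the pooled list, 25 in replicate 1 and 285 in replicate 2) were H41C03.3, ZK1248.17 and nep-25. All 3 took their ranks of 47, 26 and 274 from the same summit on chromosome II, at a distance of 0.0375 in log10 rank over the 3 lists, so they form a single locus.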

How the data were processed

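Peak lists of AMA-1 ChIP-seq from 2 biological replicates of YL489 young adults were used. Per the names the authors gave their deposited files, each replicate and the pool of both has candidate peaks together with background regions, meant as input to the irreproducible discovery rate procedure, and an optimal list passed its threshold. The deposited signal value (column 7) is the authors' own, of unstated scale, and served only to rank regions within a list. The deposited −log10 q-value (column 9) was at its highest, 3.90, for all 887 optimal peaks and for 3971 pooled regions, and was not used for ranking. The sources used here give no aligner, caller, threshold or use of the control experiment, which was not analysed here. The lists hold no reads, so depth and counting intervals are unknown.

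The ce11 lists were used; no region ended beyond a chromosome of WBcel235. Genes came from Ensembl release 115, with RefSeq bounds as an alternative, and 12 mitochondrial protein-coding genes were left out of the background. Summits were placed by column 2 plus column 10 and written 1-based, within 1000 bp of a gene or 500 bp of an end. The strongest summit was compared among genes of at least 2000 bp. Counts stand beside the share of all nuclear protein-coding genes called by the same rule, with no test, because there is 1 group. The placement code was tested on simulated data. Members and lists were chosen with earlier results of these data known. Of 89 listed names, 85 matched; hsp-16.11, hsp-16.49, dnj-6 and C01G10.8 did not. Genes named were all members, up to 3 per other list by signal (or the best pooled rank where none was called), the nearest protein-coding gene to each site, and 3 genes nearest to hsp-1 in log10 rank. Alternatives were other windows, single replicates, the 443 strongest optimal peaks, all pooled regions, RefSeq bounds and peaks away from small RNA genes. Protein sequences were not analysed here. Python 3.11.15, numpy 2.4.6, pandas 2.3.3 and matplotlib 3.10.9 were used.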

Additional observations from a re-analysis of the deposited data

How the results depend on the processing

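No paired analysis was possible because both samples belong to 1 group. The count of 7 members within 1000 bp was 1 with the summit inside the gene and 1 within 500 bp of the 5′ end. For the nearest gene only it was 3, beside 3.46% of all genes. The background share moved from 5.35% to 1.97% inside the gene, 1.51% at the 5′ end, 2.53% for the 443 strongest optimal peaks and 49.6% for all pooled regions, and the 12 genes of the other lists became 2, 4 and 75 inside the gene, at the 5′ end and for all pooled regions. The single member at a 5′ end became 2 within 1000 bp of it (hsp-60 was added), beside 2.33% of all genes. For all pooled regions that count was 8, beside 29.0% of all genes. Members with the strongest summit at the 3′ end were 8 in the pooled list and 5 with replicate 1 or replicate 2 left out. The median best rank of 373 ranged from 426 to 429 without a replicate, and was 734 within 500 bp of the gene and 2184 inside it. For these values the cause was not tested, other than that a narrower rule keeps fewer summits. The other 37 values stayed within 1.5 times, as did the medians of 426 and 429. Among the 37 were every value with RefSeq bounds and the 3′ end count of 6. That count ran from 4 (443 strongest optimal peaks, beside 0.966% of all genes) to 9 (all pooled regions, beside 32.7%). The rules on 3′ ends and on the strongest summit were chosen after seeing the data. Depth is unknown, so a weak summit cannot be told from a shallow library.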
